A study of Homo sapiens with 12 samples.

Results

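The 7 genes EEF1A1, EEF2, EIF4A1, EIF4A2, TPT1, RACK1 and RPLP0, all of the translation machinery, were examined for summits of EGFR-chimera chromatin immunoprecipitation. The members were chosen by earlier results of the same summit lists, so that the presence of a summit at a member is a description and is given without a test. A summit was assigned to a member inside the annotated gene extended by 1000 bp on each side. This rule took 11 of the 2186 summits in the 4 lists, and the 11 summits lay at 4 of the 7 genes. EEF2, TPT1 and RPLP0 held no summit in any list.

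The cells were B2B1, a single clone of the established human breast epithelial line MCF10A-5E. All groups carried the same transgenes, an NGFR-EGFR-FRB chimera with a GluGlu tag and an NGFR-Erbb2-2xFKBP chimera with an HA tag, both expressed from retroviral vectors. Overlay cultures with matrigel and EGF received 0.5 µM AP21967 (plus AP), which joins the chimeras into heterodimers, or 0.1% ethanol (minus AP) for 24 h and were harvested on day 7. The 4 GluGlu immunoprecipitates, 2 replicates for each of 2 conditions, were analysed out of 12 libraries, while input chromatin and naive IgG were not analysed here. Each list gives the position of a summit, the highest point of a peak, and a score, the −log10 of the q-value that the authors' peak caller gave it. Scores depend on depth and served only to rank summits within a list, where rank 1 is the highest score. Without AP the lists held 739 summits in replicate 1 and 56 in replicate 2, and with AP they held 1094 and 297. Of these, 582 and 56 without AP and 907 and 296 with AP lay on chromosomes 1 to 22 and X. Within 1000 bp of protein-coding genes with a canonical transcript longer than 3000 bp lay 38 and 32 without AP. With AP 66 and 187 lay there. The length of a list therefore did not follow its number of summits at such genes. Read numbers are not in the lists, so that depth is unknown. A missing summit was not detected, which does not show that it is absent. Summit lists carry no expression values, and markers of the cell type could not be checked from them.

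Translation proceeds in initiation, elongation and termination, and its factors are among the most abundant proteins of a dividing cell. eEF1A, encoded by EEF1A1, delivers aminoacyl-tRNA to the ribosome, and eEF2 moves the ribosome along the mRNA. The helicases eIF4A1 and eIF4A2 unwind the leader of the mRNA before the ribosomal subunit scans it. RACK1 is a scaffold protein of the small ribosomal subunit, RPLP0 encodes a protein of the stalk of the large subunit, and TPT1 encodes the translationally controlled tumor protein. Many mRNAs of this group open with a terminal oligopyrimidine (TOP) tract, a C followed by a run of pyrimidines, through which mTOR signaling controls their translation.

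The members were first compared at their transcription start. Summit lists do not hold this feature, but the members were chosen as translation genes, of which many open with a TOP tract. The share with a tract is therefore a description of the group. Each line below gives 15 bases before and 15 bases from the start of the canonical transcript, 5′ to 3′ on the strand of the gene, read from GRCh38. Capitals mark the uninterrupted pyrimidine run that opens at the annotated start.
EEF1A1 (chr6:73521018-73521047, minus strand): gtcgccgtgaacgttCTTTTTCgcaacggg
EEF2 (chr19:3985449-3985478, minus strand): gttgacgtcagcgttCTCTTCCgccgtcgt
EIF4A1 (chr17:7572810-7572839, plus strand): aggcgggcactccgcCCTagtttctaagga
EIF4A2 (chr3:186783562-186783591, plus strand): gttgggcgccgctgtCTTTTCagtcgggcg
TPT1 (chr13:45341169-45341198, minus strand): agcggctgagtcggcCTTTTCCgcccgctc
RACK1 (chr5:181243892-181243921, minus strand): ggggggcttttctctCTCTCTTTCactgca
RPLP0 (chr12:120201097-120201126, minus strand): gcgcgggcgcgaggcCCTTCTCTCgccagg

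A C followed by at least 4 pyrimidines opened the transcript at 6 of the 7 members (85.7%), and at 916 of 19970 protein-coding genes on chromosomes 1 to 22 and X (4.59%). The exception was EIF4A1, whose run at the annotated start was 3 bases long. The tract did not separate members with a summit from those without one, since EEF2, TPT1 and RPLP0 had runs of 7, 7 and 9 bases and no summit, and EIF4A1 had a summit without the tract. Allowing the run to open within 10 bases of the start left the members at 6 of 7 and raised the share of all genes to 33.6%.

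The number of summits at the members differed between libraries, also within a condition. Minus AP replicate 1 held 0 of its 739 summits at a member (95% Wilson interval 0 to 0.517%), and the limit of 3 counts that a count of 0 allows was 0.406%. Minus AP replicate 2 held 1 of 56 (1.79%, 95% Wilson interval 0.316 to 9.45%). Plus AP replicate 1 held 2 of 1094 (0.183%, interval 0.0501 to 0.664%) and plus AP replicate 2 held 8 of 297 (2.69%, interval 1.37 to 5.22%). These limits cover counting error only and treat summits as independent, although summits of one gene are not. The shares also depend on the part of each list away from genes, which differed between lists. Without AP the mean number was 0.5 ± 0.707 (SD, n = 2), and AP cultures had a mean of 5 ± 4.24 (SD, n = 2). The difference between conditions was close to the spread within plus AP, and 8 of the 10 plus AP summits came from replicate 2.

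By gene, 0 members had a summit in replicate 1 without AP and 1 in replicate 2, against 1 and 4 members with AP. The background is the share of 20046 protein-coding genes with a summit in the same limits. It was 0.175% and 0.16% for replicates 1 and 2 without AP, and 0.319% and 1.13% for the replicates with AP. EEF1A1 was the only member with a summit in both plus AP replicates, which held for 0.18% of the protein-coding genes. No member had a summit in both minus AP replicates, as 0.0898% of the protein-coding genes did, or in all 4 libraries, as 0.0798% did. Because these lists chose the members, nothing is read from the counts of members against these shares.

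**Figure D1:**
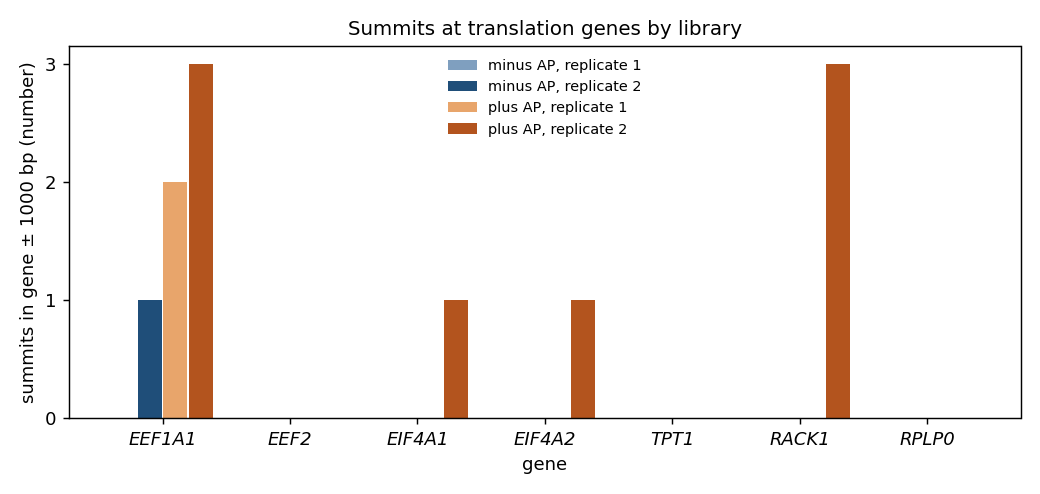
Number of summits within the limits of each member extended by 1000 bp (vertical axis) in each of the 4 GluGlu libraries (bar colors). EEF1A1 has 0 and 1 summits without AP and 2 and 3 with AP, the 5 summits at RACK1, EIF4A1 and EIF4A2 are all from plus AP replicate 2, and EEF2, TPT1 and RPLP0 have none.

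EEF1A1 (chromosome 6, 73489308 to 73525587, minus strand) has a canonical transcript of 8 exons that starts at 73521032 and ends at 73515750. The gene held 6 summits, which were 0 and 1 in the replicates without AP and 2 and 3 in those with AP. They formed a group near the start of the canonical transcript and a group near its end.

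The group near the start consisted of 1 summit from each of 3 libraries, all in intron 1 of the canonical transcript. All of them also lay in an untranslated region of another annotated transcript. The summit of minus AP replicate 2 lay at 73520815, 217 bp from the start. Plus AP replicate 1 had its summit at 73520686, 346 bp from the start, and plus AP replicate 2 at 73520741, 291 bp from the start. The 3 positions fell within 129 bp of each other, with the plus AP summits on the far side of the minus AP summit. Each line gives 30 bases around one of these summits on the strand of the gene, with the summit and 5 bases on each side in capitals, to show where the recurring signal peaked.
Minus AP replicate 2 (chr6:73520800-73520829): ctcgtgcttGAGTTGAGGCCtggcttgggc
Plus AP replicate 2 (chr6:73520726-73520755): ctcgctgctTTCGATAAGTCtctagccatt
Plus AP replicate 1 (chr6:73520671-73520700): cgcttttttTCTGGCAAGATagtcttgtaa

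The group near the end came from the plus AP libraries alone. Plus AP replicate 1 had a summit at 73515834 and plus AP replicate 2 at 73515845, 11 bp apart and 84 and 95 bp before the end of the canonical transcript, in the 3′ untranslated part of exon 8. Plus AP replicate 2 had a further summit at 73515073, 677 bp past that end but inside the annotated gene, which includes longer transcripts. In minus AP replicate 2 no summit lay at this end, and its nearest summit to these was the one in intron 1, 4970 bp from 73515845. The list of minus AP replicate 2 was the shortest of the 4, so that the absence of a 3′ summit there and the length of the list cannot be told apart. The 101 bases around the summit past the end, which lies outside the canonical transcript, are as follows, with capitals as before.
EEF1A1, plus AP replicate 2 (chr6:73515023-73515123, minus strand): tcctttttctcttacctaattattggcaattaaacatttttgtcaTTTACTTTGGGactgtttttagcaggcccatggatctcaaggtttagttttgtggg

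The ranks of the EEF1A1 summits were intermediate or low, except for the summits of plus AP replicate 2 past the end and in intron 1. The summit of minus AP replicate 2 had a score of 3.07 and ranked 37 of 56. In plus AP replicate 1 the summit of intron 1 had a score of 4.54 and ranked 627 of 1094, and the summit of exon 8 had a score of 5.45 and ranked 539. In plus AP replicate 2 the summit past the end had the highest score of the gene, 8.34, and ranked 37 of 297. The summit of intron 1 in that library followed at rank 49 with a score of 7.31, and the summit of exon 8 ranked 238 with a score of 2.66. The order of the ends therefore differed within a library, and the exon 8 summit that ranked above the intron 1 summit in plus AP replicate 1 ranked below it in plus AP replicate 2. In minus AP replicate 1, the nearest summit on chromosome 6 lay 13668240 bp outside the gene. This list was the second longest, but 38 of its 739 summits lay at protein-coding genes with a canonical transcript longer than 3000 bp.

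**Figure D2:**
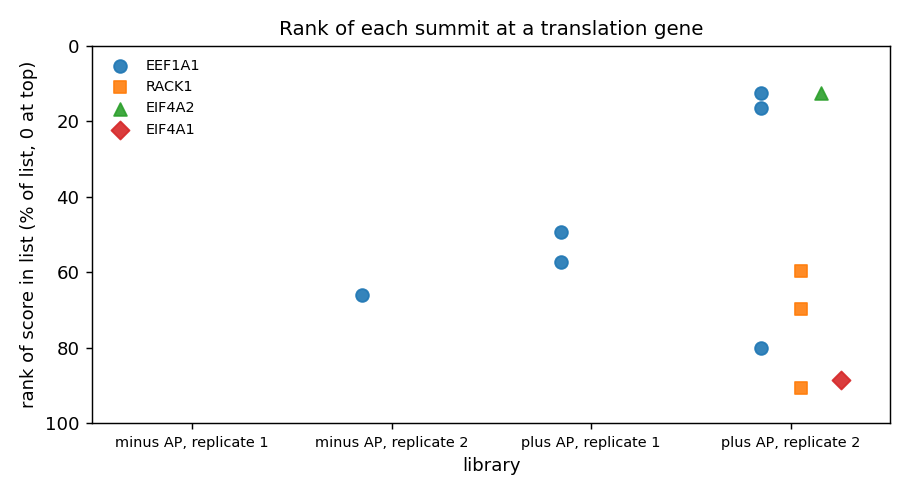
Rank of the score of each of the 11 summits within its own list, as percent of the list with the highest score at 0% (vertical axis), by library (horizontal axis), with a marker shape for each gene. The best ranks are those of EEF1A1 and EIF4A2 in plus AP replicate 2, both at 12.5% of the list, and the best-ranked member summit of any other library is at 49.3%.

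EEF1A1 was also examined for how often its sequence occurs in the genome. EEF1A1 has 49 annotated pseudogenes named after it, and none of them contained a summit in any list. Of the 75-base sequences centered in EEF1A1 exons, 31.6% occurred more than once in GRCh38, with up to 8 copies, against 0% in the introns and 0% in the 1000 bp on either side. The repeated sequences began in exon 2 and ended in exon 8, in 50-bp bins that opened between 1000 and 3450 bp from the start. The bins from 350 to 950 bp and from 3500 to 5100 bp, the latter in exon 8, held neither a repeated sequence nor a summit, so that much of the gene without summits was as unique as its ends. No 75-base sequence within 250 bp of any of the 6 EEF1A1 summits had a second copy. Among the other members, RPLP0, which had no summit, had 29.4% repeated exonic sequences, and the remaining 5 had 0 to 6.54%. The authors kept uniquely mapped reads, and whether this left the middle of the gene without summits was not tested.

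RACK1 was the other member with several summits. The gene spans 181236897 to 181248096 of chromosome 5 on the minus strand, with the canonical start at 181243906. Plus AP replicate 2 had 3 summits there and the other 3 libraries had 0 each, so that no RACK1 summit recurred. The first, at 181244025, lay upstream, at -119 bp relative to the canonical start, but inside the annotated gene. It ranked 207 of 297 and had a score of 3.47. The second, at 181243117, lay 789 bp from the start in intron 1 and ranked 177 with a score of 3.495. It was 195 bp from the snoRNA gene SNORD95, which is in the same intron, and lay in an untranslated region of another annotated transcript. The third, at 181236425, lay 472 bp past the end of the gene and ranked 269 with a score of 2.202. No RACK1 summit lay between intron 1 and the end of the gene. The 101 bases around the upstream and the downstream summit are given on the strand of RACK1, with the summit and 5 bases on each side in capitals.
RACK1, upstream (chr5:181243975-181244075, minus strand): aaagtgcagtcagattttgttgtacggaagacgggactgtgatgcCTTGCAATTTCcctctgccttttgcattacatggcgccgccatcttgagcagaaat
RACK1, downstream (chr5:181236375-181236475, minus strand): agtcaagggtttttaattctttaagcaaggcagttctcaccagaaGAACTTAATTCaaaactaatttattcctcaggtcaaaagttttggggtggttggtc

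The paralogous helicase genes each had 1 summit, both in plus AP replicate 2 and both near the start. EIF4A2 (chromosome 3, 186783205 to 186789897, plus strand) had its summit at 186783607, 30 bp into the canonical transcript in the untranslated part of exon 1. It had a score of 8.34 and ranked 37 of 297, tied with the EEF1A1 summit past the end. EIF4A1 (chromosome 17, 7572824 to 7579006, plus strand) had its summit at 7573195, 370 bp from the start in intron 1. That summit had a score of 2.32 and ranked 263 of 297, near the foot of the list. The summit of EIF4A2 also lay inside an antisense lncRNA gene, ENSG00000263826, and that of EIF4A1 inside the readthrough gene SENP3-EIF4A1 and the lncRNA gene ENSG00000264772, so that these summits cannot be given to the member alone. The 30 bases at the EIF4A2 summit and the 101 bases at the EIF4A1 summit follow.
EIF4A2 (chr3:186783593-186783622, plus strand): tgagtggttTTTCGGATCATgtctggtggc
EIF4A1 (chr17:7573145-7573245, plus strand): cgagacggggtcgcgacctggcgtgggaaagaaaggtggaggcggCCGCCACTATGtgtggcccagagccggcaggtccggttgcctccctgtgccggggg

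The members without a summit were far from any. EEF2 spans 3976056 to 3985463 of chromosome 19 (minus strand), and the nearest summit of the 4 lists was 845073 bp away, in plus AP replicate 2. TPT1 spans 45333471 to 45341284 of chromosome 13 (minus strand), and the nearest summit was 4668395 bp away, in minus AP replicate 1. RPLP0 spans 120196699 to 120201235 of chromosome 12 (minus strand), and 3 libraries had their nearest summit 90572 to 90873 bp away. The only summit outside an annotated gene that the limits took was the RACK1 summit 472 bp past the end. Limits of 5000 bp added none. Where a member had no summit in a list, the nearest on its chromosome was at least 90572 bp away.

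Position along the gene was not used to choose the members. Of the 11 summits, 7 lay upstream or within 1000 bp of the canonical start, 4 within 1000 bp of the canonical end or past it, and 0 in between. By the canonical transcript, 5 were in intron 1, 3 in an exon, 1 upstream and 2 downstream. All 4 genes had a summit near the start, and EEF1A1 and RACK1 also had summits near the end. All summits of plus AP replicate 2 at protein-coding genes with a canonical transcript longer than 3000 bp were split by the same limits. Of these, 122 of 187 (65.2%) lay near the start, 21 (11.2%) near the end and 44 (23.5%) in between. A summit at several such genes was counted once, with a start preferred to an end and an end to the part in between. Member summits were placed by the member alone, so that the background leans more to the start. The 8 member summits of that library divided into 5, 3 and 0. The 4 genes have canonical transcripts of 5283 to 7010 bp. Neither this comparison nor the next was matched for gene length, and in a longer gene the part in between is larger. Summits at both ends of one gene were found for 9 of 169 such genes in plus AP replicate 2 (5.33%), EEF1A1 and RACK1 among them, and for 6 of 43 in plus AP replicate 1, EEF1A1 among them. Because few summits were available and summits of a gene are not independent, this difference was not tested.

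**Figure D3:**
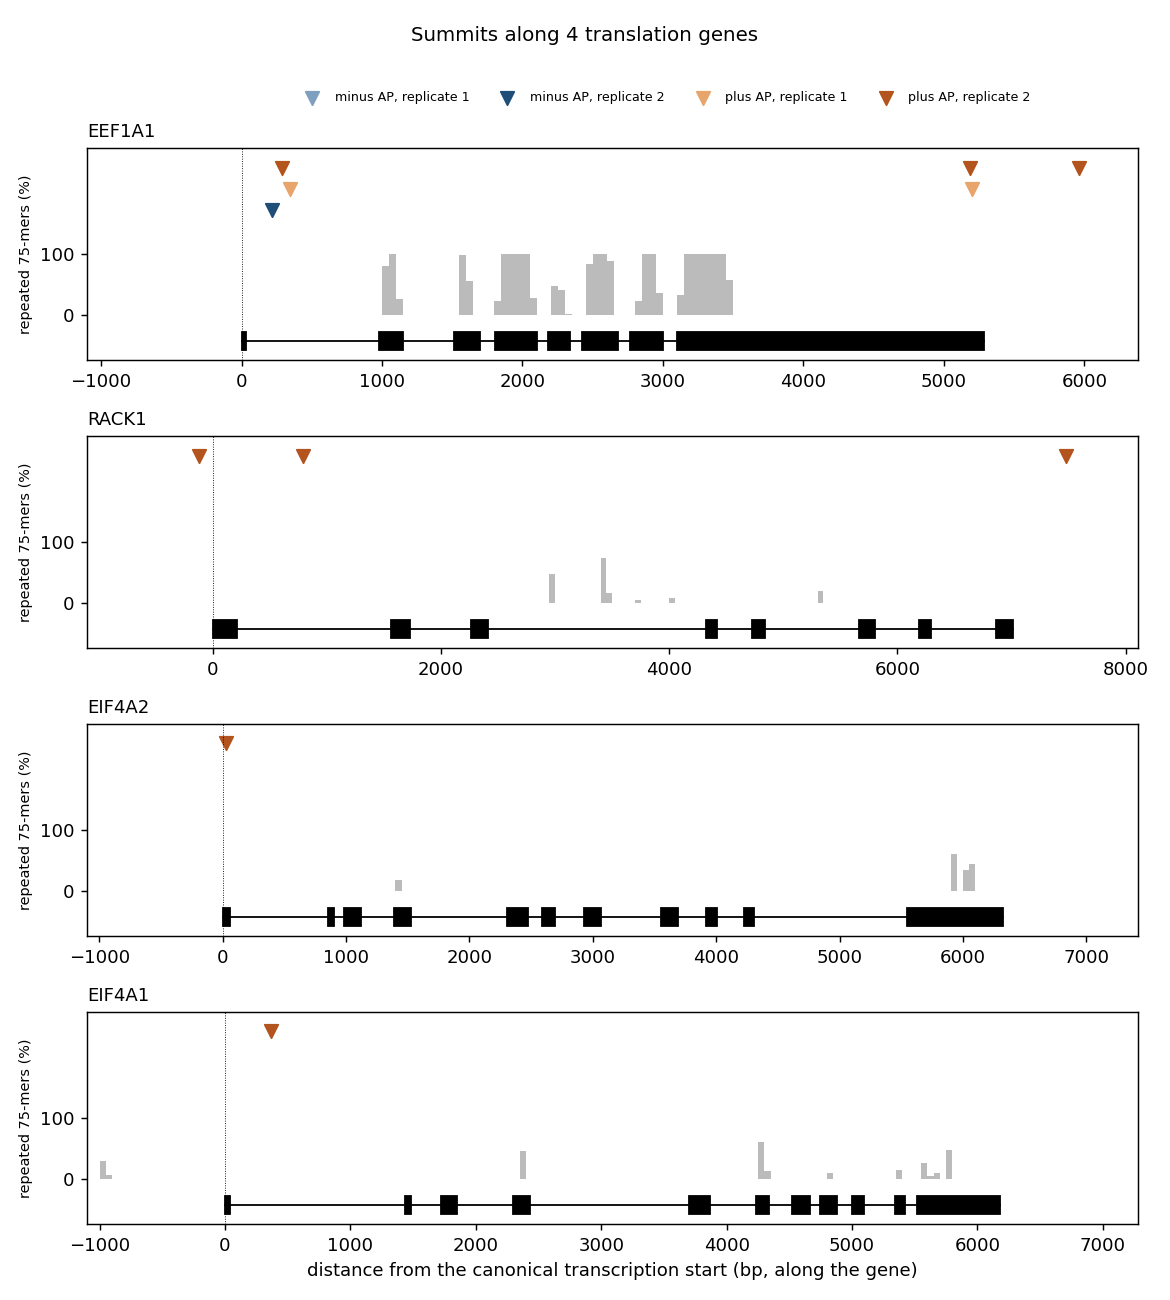
Positions of summits along the 4 members that had any, as distance in bp from the canonical start (horizontal axis), with triangles for summits (colors for the 4 libraries), black boxes for exons, and gray bars for the percent of 75-base sequences in 50-bp bins that occur more than once in the genome. In EEF1A1 the summits lie at 217 to 346 bp and at 5187 to 5959 bp, on both sides of the repeated exons, and the summits of RACK1, EIF4A2 and EIF4A1 are near the start or, for RACK1, also past the end.

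Small RNA genes inside the members were also compared with the summits, since introns of translation genes often carry snoRNAs, guides for the modification of ribosomal RNA. EIF4A1 hosts SNORA48, SNORD10 and SNORA67, EIF4A2 hosts SNORD2, SNORA63B, SNORA81, SNORA63, SNORA4 and MIR1248, and RACK1 hosts SNORD95 and SNORD96A. EEF2 (SNORD37) and TPT1 (SNORA31 and SNORA31B) host snoRNA genes and had no summit, and EEF1A1 and RPLP0 host none in this annotation. No summit lay inside a small RNA gene. The nearest was the RACK1 summit 195 bp from SNORD95, the EIF4A2 summit was 1189 bp from SNORD2, and the EIF4A1 summit was 1518 bp from SNORA48. EEF1A1, the member with the most summits, contains no such gene.

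The sequence composition differed between the summits near the start and those near the end. In windows of 300 bases, the 3 EEF1A1 summits of intron 1 had a GC content of 55.7 to 61.0% and 22 to 32 CpG dinucleotides, and the EIF4A1 and EIF4A2 summits had 69.3 and 53.0% GC with 34 and 23 CpG. The upstream and intron 1 summits of RACK1 had 50.0 and 49.0% GC with 15 and 9 CpG. The summits at the ends of EEF1A1 and RACK1 had 35.0 to 37.7% GC and 0 to 2 CpG. The median GC content over all summits was 40 and 51.3% in replicates 1 and 2 without AP and 39.7 and 53.0% in those with AP, and 58.7% over 35114 RefSeq promoter windows of the same length (GRCh38.p14). Motifs were searched on both strands as literal matches. GGGCGG, the core of the SP1 box, was in 2 of the 11 windows (18.2%), the overlapping windows of both plus AP replicates in intron 1 of EEF1A1. It was in 7.99 and 33.9% of all windows of replicates 1 and 2 without AP, in 5.13 and 32.0% of those with AP, and in 45% of the promoter windows. TGANTCA, with any base at N, includes the AP-1 site but is wider than it. This pattern was in 3 of 11 (27.3%), in 3.39 to 6.40% of all windows of a library and in 7.71% of the promoter windows. These 3 windows were the overlapping windows at exon 8 of EEF1A1 and the window in intron 1 of RACK1, so that they hold few independent matches. TNTTT, a form of the AT-rich sequence described for nuclear EGFR, was in all 11 windows, in 81.3 to 85.7% of all windows of a library and in 74.0% of the promoter windows.

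Other genes of the translation machinery were counted from 4 lists by function, which were also drawn up with earlier results of these libraries known. None of 9 other elongation factor genes, including the paralog EEF1A2 and the eEF1B subunit genes EEF1B2, EEF1D and EEF1G, had a summit in any library. Of 40 other initiation factor genes, 1 had a summit in minus AP replicate 1 (2.50%), 3 in plus AP replicate 2 (7.50%) and 0 in the remaining libraries. These were EIF1, which selects the start codon and had a summit in both of these libraries, EIF4G2 and the poly(A)-binding protein gene PABPC1, named after their values had been seen. Of 87 ribosomal protein genes other than RPLP0, 12 (13.8%) had a summit in plus AP replicate 2 and 0 in each of the other 3 libraries. Of 32 genes with other abundant transcripts, such as actin and glycolytic genes, 5 (15.6%) had a summit in plus AP replicate 2, among them ACTB, FTH1, PPIA and S100A6, named after their values had been seen. FTH1, which encodes the ferritin heavy chain, also had a summit in minus AP replicate 1. The share in plus AP replicate 2 was thus 15.6% for other abundant transcripts and 13.8% for ribosomal proteins, beside 1.13% of all protein-coding genes, and these differences were not tested. No gene of these lists had a summit in both replicates of a condition. EEF1A1 was thus the only gene of the translation machinery counted here that recurred within a condition. It was chosen with these summits in view, so that nothing is read from this.

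**Figure D4:**
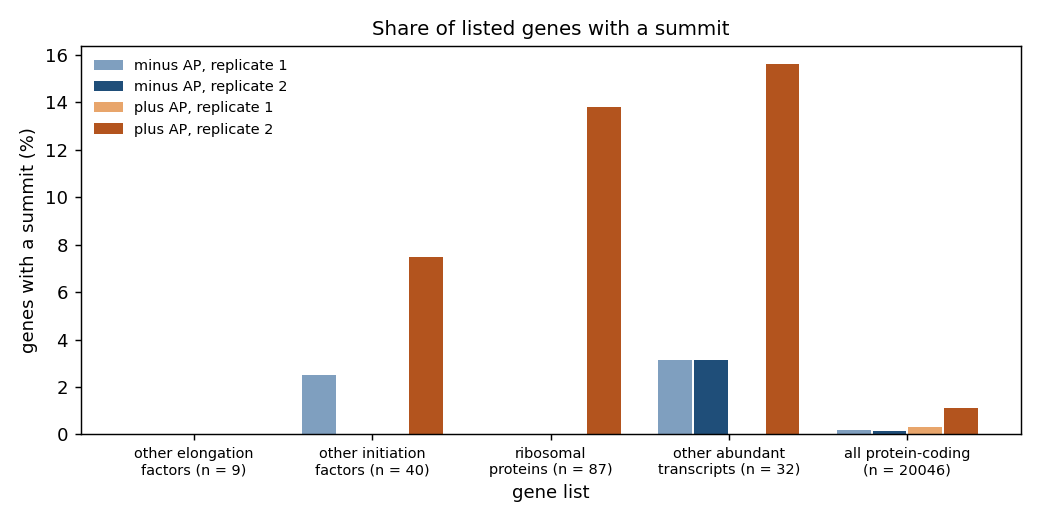
Percent of genes with at least 1 summit within 1000 bp of the gene (vertical axis) for 4 gene lists without the 7 members and for all 20046 protein-coding genes, by library (bar colors). In plus AP replicate 2 the bars are 0, 7.50, 13.8, 15.6 and 1.13% from left to right, and no ribosomal protein gene has a summit in another library.

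Positions and ranks of the ribosomal protein summits are given beside those of the members. Plus AP replicate 2 had 13 summits at the 12 ribosomal protein genes, of which 10 lay upstream or within 1000 bp of the canonical start, with a median rank of 177 and a range of 22 to 281. The 8 member summits of that library had a median rank of 192 and a range of 37 to 269. In number of summits, EEF1A1 and RACK1, with 3 each in plus AP replicate 2, belonged to the 13 of 226 protein-coding genes (5.75%) with at least 3.

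The pattern of EEF1A1 over the libraries was compared with that of the 25 other protein-coding or lncRNA genes that had a summit in all 4. Likeness was measured as the sum over the 4 libraries of the absolute difference in summit number. The nearest were LINC00910, a long noncoding RNA, and SOD2, the mitochondrial superoxide dismutase gene, at a sum of 2 each. LINC00910 had 1, 1, 2 and 2 summits and SOD2 had 2, 1, 2 and 3, with the replicates without AP first and those with AP after them. BIRC3, an inhibitor of apoptosis, and the lncRNA genes ENSG00000288528 and SNHG3 followed at a sum of 3, as did SPIDR, which the order of symbols placed after them. EEF1A1 itself had none in minus AP replicate 1, and genes without a summit in every library were not ranked. The exact pattern of a summit in 3 libraries and none in minus AP replicate 1 was seen, besides EEF1A1, at 6 protein-coding or lncRNA genes, among them the snoRNA host gene GAS5 and the transcription regulator gene ID1, named after their values had been seen. A summit counted for every gene whose extended limits held it, so that the 25 and 6 are numbers of genes and not of separate loci.

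Recurrence of EEF1A1 was also read by position. Of the 8 member summits of plus AP replicate 2, 3 lay within 1000 bp of a summit of plus AP replicate 1, all at EEF1A1, at distances of 55, 11 and 761 bp. Within 500 bp there were 2. The EEF1A1 summit of minus AP replicate 2 lay 129 bp from a summit of plus AP replicate 1 and 74 bp from one of plus AP replicate 2, and 13699747 bp from the nearest summit of minus AP replicate 1. The intron 1 position was therefore found without AP in 1 of 2 replicates and with AP in 2 of 2. With 2 libraries a condition no exact permutation test can give a two-sided p below 0.333, and the difference between conditions was not tested.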

How the data were processed

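The deposited lists of summits of 4 GluGlu ChIP-seq libraries were analysed. Reads of 75 bp, sequenced in pairs, were mapped by the authors with Bowtie2 2.2.9 (GRCh38, default settings), who kept uniquely mapped, non-duplicated reads and called peaks in each library with MACS2 2.2.7.1. The study's methods name input chromatin as the control and its results name naive IgG, so that which of them the scores refer to is not settled here. The deposited score is the −log10 of the q-value, and the lowest was 1.31, above the 1.301 of a q-value of 0.05. Libraries were matched to conditions by the sample labels, the peak names and the supplementary lists that hold the same peak names.

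Members and gene lists were chosen with earlier results of these data known. Named besides the members were listed genes recurring within a condition (none did) and the 5 genes most like EEF1A1 in summit number among genes with a summit in all 4 libraries, ties by symbol, and small RNA genes inside a member. Other genes are marked as named after their values were seen, except list paralogs given without a summit and SPIDR, which tied. Genes, canonical transcripts and exons came from GENCODE 44 on GRCh38. Exact 75-base copies were counted on both strands of 194 sequences of the reference, without alternate haplotypes. The code was tested on simulated sequence. Python 3.11.15, numpy 2.4.6, pandas 2.3.3, scipy 1.17.1, numba 0.67.0 and matplotlib 3.10.9 were used. Alternatives changed the gene limits, minimum score, list length, shared distance, merging of summits, chromosomes and replicates. The values of 1 listed gene are not reported here.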

Additional observations from a re-analysis of the deposited data

How the results depend on the processing

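Of 62 alternative values, 60 stayed within 1.5 times a count, within 1 SD of a mean, or within the 95% Wilson interval of the share inside the gene, and 2 did not. Leaving out a replicate could not move a mean by this rule, because with n = 2 each replicate lies within 1 SD of their mean. Those values say nothing on stability. With each list limited to its 56 highest-scoring summits, the number of members recurring with AP went from 1 to 0, because no EEF1A1 summit of plus AP replicate 1 ranked that high. The share of member summits inside the annotated gene was 90.9%, and it ranged from 88.9% without replicate 1 to 100% without replicate 2, the other value that moved. It was 72.7% with the limits of the canonical transcript. Without replicate 1 the mean number of member summits was 1 without AP and 8 with AP, and without replicate 2 it was 0 and 2. Limits of the canonical transcript extended by 1000 bp, chosen after seeing the data, changed no count. No paired analysis was possible because no test was made, and by replicate number the member summits without and with AP were 0 and 2 in replicate 1 and 1 and 8 in replicate 2. The lists give no read numbers, so that depth limits every statement on a missing summit, and no control immunoprecipitate was analysed here.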
